A study of Arabidopsis thaliana with 4 samples.

Results

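RNA polymerase V (Pol V) is a plant polymerase that transcribes non-coding RNA from loci silenced by RNA-directed DNA methylation (RdDM). Its transcripts are bound by small interfering RNAs carried by an ARGONAUTE protein, which brings in the methyltransferase DRM2, and cytosines become methylated in the CG, CHG and CHH contexts (H is A, C or T). The DDR complex of DRD1, DMS3 and RDM1 is needed for Pol V to occupy chromatin. Pericentromeres are the heterochromatic regions on both sides of the centromeres, rich in old and long transposons. In Arabidopsis the CHH sites of the long transposons there are known to be methylated mainly by CMT2 with the remodeller DDM1. RdDM acts mostly on short elements and on the edges of long ones.

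The summits described here are the positions of Pol V peaks that lay in pericentromeric sequence and away from genes. A summit was taken if it fell outside every annotated gene and pseudogene, lay more than 1000 bp from every protein-coding gene, and was inside 1 of 5 spans. The spans ran from 11.5 to 17.7 Mb on chromosome 1, 1.1 to 7.2 Mb on chromosome 2, 10.3 to 17.3 Mb on chromosome 3, 1.5 to 6.3 Mb on chromosome 4 and 9.0 to 16.0 Mb on chromosome 5. The span on chromosome 4 also holds the heterochromatic knob of the short arm. The rule used position and annotation, and no measured value. It took 1717 of the 11478 summits in the deposited list (14.96%). Of the listed summits, 8057 lay outside genes and pseudogenes, and 3359 of these were also more than 1000 bp from protein-coding genes. The other 1642 of those 3359 lay on the chromosome arms and serve as the comparison. Of all 4184 summits inside the spans, 41.0% met the rule.

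The study compared anti-FLAG chromatin immunoprecipitation (ChIP-seq) of inflorescences from plants carrying DRD1-Flag, DMS3-Flag or RDM1-Flag with that of untransformed Col0 plants, with 1 library each and no treatment. The signals of those libraries were not analysed here. The summits come from a published Pol V ChIP and its no-antibody control, and each has 1 whole-number score from the peak caller, whose unit is not named. Because there was 1 peak call and no replicate, no difference below could be tested against replicate error. Depth is unknown from the list, and all intervals are 95% intervals that cover counting error only. Neighbouring summits share a chromosomal region, so they are not independent of each other and the intervals are too narrow to that extent.

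The highest-scoring summits of chromosomes 1, 2, 4 and 5 are printed as examples. Each is given as the 75 bases on both sides of the summit, on the plus strand of TAIR10.1, with CG sites, the cytosines that can be methylated on both strands, in capitals.
Chromosome 1, chr1:11649960-11650110: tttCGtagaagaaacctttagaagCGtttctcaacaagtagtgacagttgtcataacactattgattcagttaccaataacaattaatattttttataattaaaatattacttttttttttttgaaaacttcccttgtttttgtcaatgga
Chromosome 2, chr2:4007192-4007342: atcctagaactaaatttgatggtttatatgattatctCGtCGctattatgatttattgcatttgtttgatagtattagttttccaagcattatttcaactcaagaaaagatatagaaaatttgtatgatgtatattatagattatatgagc
Chromosome 4, chr4:5634763-5634913: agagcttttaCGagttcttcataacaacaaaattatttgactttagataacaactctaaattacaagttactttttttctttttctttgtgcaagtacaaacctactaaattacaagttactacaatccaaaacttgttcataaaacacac
Chromosome 5, chr5:10240321-10240471: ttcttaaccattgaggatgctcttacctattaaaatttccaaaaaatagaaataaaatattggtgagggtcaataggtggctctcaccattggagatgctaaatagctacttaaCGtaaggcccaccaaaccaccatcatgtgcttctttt
All 4 are rich in A and T and poor in CG, with 2, 2, 1 and 1 CG sites in this order. Their GC content was 25.8%, 25.2%, 27.2% and 37.1%. These sites were chosen by score, so their scores are a description.

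The summit on chromosome 5 at 10240396 had a score of 1427 and stood far from genes, 26798 bp upstream of AT5G28237, annotated as a pyridoxal phosphate-dependent enzyme. The summit at 5634838 on chromosome 4 scored 1392 at 1059 bp downstream of PUM11 (AT4G08840), a Pumilio family RNA-binding protein gene. At 13480875 on chromosome 3 the score was 1343, and the nearest protein-coding gene, AT3G32920, was 3528 bp away.

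Further summits among the 10 highest scored between 1013 and 1199 and stood near genes of varied annotation. At 10923004 on chromosome 3 a summit with a score of 1090 lay 1704 bp upstream of MIF2 (AT3G28917), a mini zinc finger gene. The highest of chromosome 2, at 4007267, scored 1199 and lay 6485 bp from AT2G10440, annotated as a Mediator subunit. A summit 2203 bp upstream of HDA7 (AT5G35600), a histone deacetylase gene, scored 1161. The highest of chromosome 1, at 11650035, scored 1101 at 1292 bp upstream of GulLO1 (AT1G32300), a lactone oxidase gene. A summit 3936 bp upstream of AT4G06598, annotated as a bZIP transcription factor, scored 1063, and one 3309 bp downstream of AT2G13463 scored 1013. In 8 of the 10, every 50-base word within 250 bp occurred once in the genome, and in the other two 93.1% and 93.6% did.

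High scores were the exception. The median score was 125 (interval 114 to 130), with quartiles of 67 and 245, against a median of 201.5 (191 to 218) for gene-distal summits on the arms and 169 for the whole list. The pericentromeric median was below the arm median on each chromosome. It was 130 against 199 on chromosome 1, 114 against 201.5 on chromosome 2, 126 against 245 on chromosome 3, 130 against 183 on chromosome 4 and 111 against 200 on chromosome 5. The distributions overlapped widely, since the arm quartiles were 104 and 388. A score at or above the 90th percentile of the list (602) was reached by 4.78% of the pericentromeric summits (3.86 to 5.89%) and by 11.6% of those on the arms (10.2 to 13.3%). Among summits with only unique 50-base words around them, the medians were 130 and 239, and the difference was larger there.

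**Figure D1:**
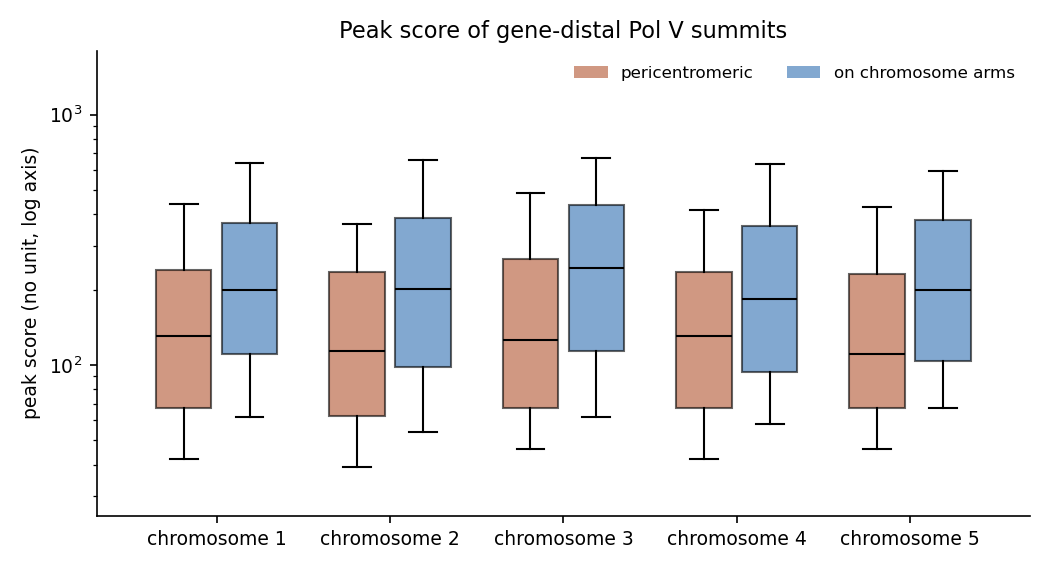
Peak score (log axis, no unit) of gene-distal Pol V summits by chromosome, pericentromeric in orange and on the arms in blue. Boxes span the quartiles with the median as a line and whiskers reach the 10th and 90th percentiles over summits; the pericentromeric median is the lower of each pair, from 111 to 130 against 183 to 245.

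The summits were thinly spread where genes were far away. The eligible pericentromeric sequence, which is the sequence where a summit would have met the rule, came to 11.1 Mb and held 154 summits per Mb (147 to 162). On the arms the same count was 187 per Mb (178 to 196) over 8.78 Mb. Reads had been kept only where they mapped uniquely. In the spans 78.4% of the eligible bases stood at the centre of a unique 50-base word, against 94.8% on the arms. Per Mb of unique sequence the densities were 197.1 and 197.4. By chromosome the pericentromeric density was 155, 172, 166, 125 and 150 per Mb for chromosomes 1 to 5, with chromosome 4, which holds the knob, the lowest.

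Within the spans the density fell with distance from protein-coding genes. It was 314 per Mb (290 to 339) at over 1000 and up to 2000 bp, 250 (229 to 273) at 2000 to 4000 bp and 168 (150 to 188) at 4000 to 8000 bp. Further out it was 85.0 (72.0 to 99.7) at 8000 to 16000 bp, 39.8 (30.4 to 51.3) at 16000 to 32000 bp and 11.9 (7.47 to 18.05) beyond 32000 bp. Each interval lies below that of the bin before it. The fall was not seen on the arms, where the density was 193, 180 and 173 per Mb in the first 3 bins and 187 in the fourth, which held 11 summits. Close to genes the pericentromeric density was thus the higher of the pair, at 314 against 193 per Mb.

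Unique sequence also became scarcer with distance, from 89.8% of eligible bases at 1000 to 2000 bp to 48.9% beyond 32000 bp. Per Mb of unique sequence the density still fell, from 349 to 24.4. Set together, 1000 to 4000 bp held 283 summits per Mb and the sequence beyond 16000 bp held 24.5, a ratio of 11.6, or 7.92 per Mb of unique sequence. Beyond 16000 bp there were 82 summits, 4.78% of the 1717, in 29.99% of the eligible sequence. The ratio lay between 9.51 and 14.7 with each chromosome left out, with the highest value without chromosome 2. The far density was lowest on chromosomes 5 and 1, at 7.46 and 8.31 per Mb, and 62.9 per Mb on chromosome 2, while the near density was between 269 and 292 on all 5. Gene distance, heterochromatin, repeat content and distance from the centromere go together along the spans, and their parts cannot be told apart from the list.

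**Figure D2:**
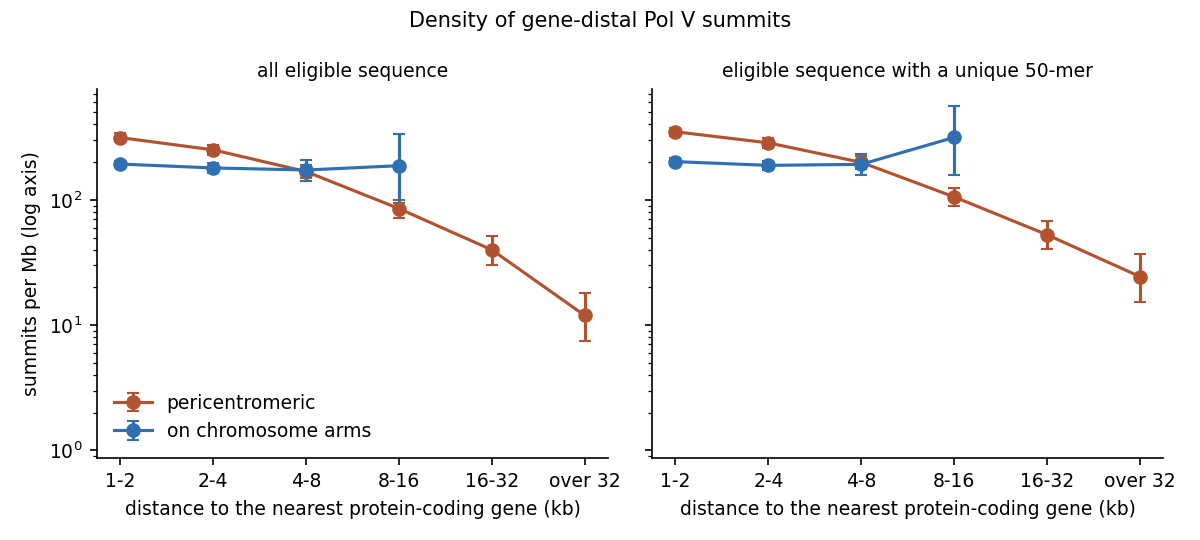
Summits per Mb (log axis) against distance to the nearest protein-coding gene in kb, over all eligible sequence (left) and over sequence with a unique 50-base word (right), with exact Poisson intervals. In the spans the density falls from 314 to 11.9 per Mb on the left and from 349 to 24.4 on the right, while the arm values stay near 173 to 193 per Mb on the left.

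The fall was in the number of summits more than in their score. The median score was 130, 125, 109 and 99 in the first 4 bins, 127.5 at 16000 to 32000 bp and 92 beyond 32000 bp, with 60 and 22 summits in the last bins. Some of the far summits scored high, up to 1427 at 16000 to 32000 bp and 837 beyond 32000 bp. The summit farthest from a gene, on chromosome 3 at 13843392, scored 71 and lay 177295 bp from AT3G33187, a defensin-like gene. Its nearest other summit was 221720 bp away, and related sequence occurred at 52 other places. It is shown here, with CG in capitals, because it stands alone in gene-free sequence.
Farthest from a gene, chr3:13843317-13843467: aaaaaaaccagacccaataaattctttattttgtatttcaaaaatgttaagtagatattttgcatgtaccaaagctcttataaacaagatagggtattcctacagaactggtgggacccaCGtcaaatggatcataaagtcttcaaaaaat
Only 1 CG site stands in these bases and their GC content is 31.1%. At the other end of the range, the summits just inside the 1000 bp limit lay 1004 and 1006 bp from a gene and scored 50 and 75. The 2 summits just outside lay exactly 1000 bp from CSLC12 and ELF4-L3, and scored 294 and 239.

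The same order appeared along the chromosomes. Of 61 whole bins of 500 kb, 3 held no summit, 13 held fewer than 50 per Mb and 10 held over 300 per Mb, with the highest at 441. The empty bins were 14.5 to 15 and 15 to 15.5 Mb on chromosome 1 and 3 to 3.5 Mb on chromosome 4. Among the bins with at least 0.1 Mb of eligible sequence, the 20 with the lowest share of protein-coding bases (1.51 to 9.20%) held 43.8 per Mb. The density was 199.8 in the 19 bins with 9.55 to 26.96% and 273 in the 19 bins with 27.04 to 50.5%. A single gene-rich bin stood apart, at 3.1 to 3.6 Mb on chromosome 2, with 27.8% protein-coding bases but 2 summits, or 14.5 per Mb. Of its 50-base words, 51.9% also occur in the mitochondrial genome, against at most 0.0262% in any other bin. Chromosome 2 of Arabidopsis carries a known insertion of mitochondrial DNA near its centromere. Per Mb of unique sequence this bin held 20.3 summits, against 197.1 over all eligible pericentromeric sequence. The part of the shared words in the low count was not tested.

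Nearness to pseudogenes went the other way. Many RefSeq pseudogenes in these regions are remnants of transposon genes, although the annotation used has no class of transposable elements. Within 500 bp of a pseudogene the density was 89.6 per Mb (78.9 to 101). It was 228 per Mb (202 to 255.7) at 4000 to 8000 bp and 218 (197 to 240) beyond 8000 bp. On the arms the order was reversed, with 310 per Mb (257 to 370) within 500 bp and 163 (153 to 172) beyond 8000 bp. Distance from protein-coding genes varies with distance from pseudogenes, and its part was not tested. Summits lay upstream of their nearest protein-coding gene in 61.6% of cases (59.3 to 63.9%), against 55.4% of eligible positions. At 1000 to 2000 bp from the gene the shares were 62.2% (58.5 to 65.8%) and 58.5% (56.4 to 60.6%), with overlapping intervals. On the arms the shares over all distances were 65.5% and 67.6%.

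The summits stood closer together than those on the arms. Another listed summit lay within 3000 bp of 76.5% of the pericentromeric summits (74.5 to 78.5%), against 65.4% (63.1 to 67.7%) on the arms. The median distance to the next summit was 1338 bp against 1673 bp. At least 3 other summits within 3000 bp were found for 18.1% (16.3 to 19.9%) against 7.37% (6.20 to 8.73%) on the arms. Over the whole list 63.4% had a neighbour and 9.56% had at least 3. Any listed summit counted as a neighbour, so these shares depend on the density of all summits, whose part was not tested. In the spans the share with a neighbour was 79.7% at 1000 to 2000 bp from genes and 50% beyond 32000 bp. It thus moved with gene distance as well. On the arms, isolated summits scored highest, with medians of 261.5, 194, 167.5 and 157 for 0, 1, 2 and at least 3 neighbours. The same medians in the spans were 134, 115, 125 and 120, a much smaller range.

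Of the runs in which each summit lay within 3000 bp of the next, the longest held 9 on chromosome 3, from 12452862 to 12461661. Their scores in order were 129, 78, 42, 65, 359, 294, 75, 99 and 85, so 2 adjacent summits near the middle stood above the others. There were 21 runs of at least 5, holding 121 summits. The closest pair, on chromosome 5 at 10218345 and 10218665, was 320 bp apart and scored 67 and 120. Single summits of 1 broad peak cannot be told from separate peaks in a list that gives no peak width.

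The base composition changed sharply at the summit itself. GC content was 32.7% within 100 bp of the summit, fell to a low of 29.1% at 275 bp, was 30.4% at 500 to 1000 bp and returned to 32.7% at 1500 to 2000 bp. Arm summits had the same shape with a lower centre, at 30.8% within 100 bp and 28.9% at the low. By the rule no protein-coding gene lies within 1000 bp of a summit, so such genes enter both profiles only beyond that distance. Their part in the outer rise was not tested. Over 250 bp on each side the mean GC content was 31.1% (SD 4.52, over summits), below the 33.1% of eligible pericentromeric positions. Where every 50-base word was unique it was 31.2% at summits and 31.1% at eligible positions, so the gap was not seen there. Within 100 bp, the unique windows still had 32.8% at summits and 30.8% at eligible positions. The score rose with GC content, from a median of 80 at or under 25% GC to 120, 136 and 141 in the next classes, up to over 35%. The part of GC content in the scores was not tested.

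**Figure D3:**
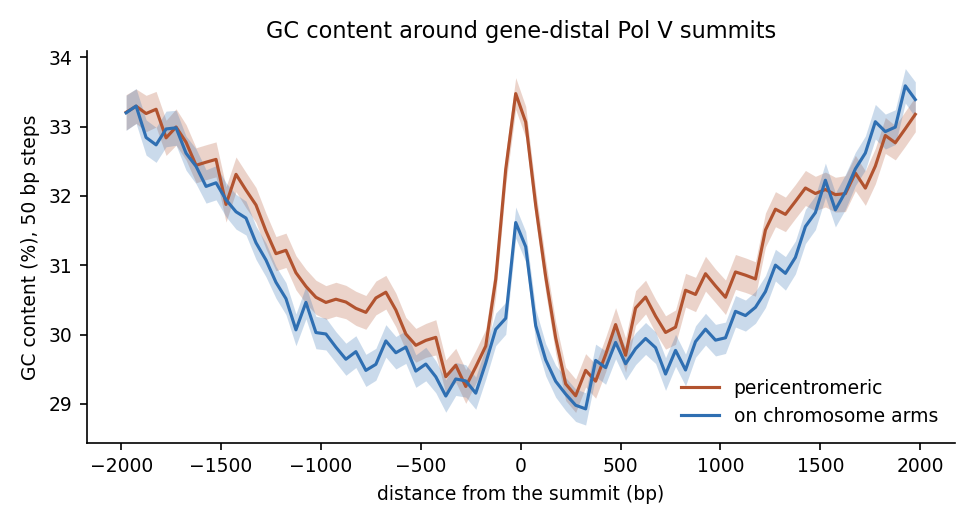
Mean GC content (%) in 50 bp steps against distance from the summit in bp, pericentromeric in orange and arms in blue, with shading of 1 standard error over summits. Both curves have a narrow peak at the summit, 32.7% and 30.8% within 100 bp, between lows of 29.1% and 28.9%.

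Cytosines in the 3 contexts that RdDM methylates were counted on both strands. There were 3.84 CG, 3.25 CHG and 23.9 CHH sites per 100 bp within 250 bp of the summits. Eligible pericentromeric positions had 4.19, 3.64 and 25.1. These positions were not matched to the summits in gene distance, with a median of 6664 bp against 2482 bp. Among windows with only unique words the summits had 3.93, 3.31 and 23.8 and the eligible positions 3.88, 3.27 and 23.8, with no difference over 0.1 sites per 100 bp. The list holds no methylation values.

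A set of 6 short motifs was searched on both strands within 150 bp of each summit. GAGAGA, a repeat that BASIC PENTACYSTEINE proteins bind in plants, occurred at 25.4% of the summits (23.4 to 27.5%), against 16.9% of eligible positions. In unique windows the shares were 23.6% (21.3 to 26.0%) and 18.2% (17.1 to 19.4%). Summits with GAGAGA had a median score of 147 (126 to 169) and those without had 114 (107 to 125). On the arms the motif occurred at 19.8% of summits and 15.7% of eligible positions.

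AAAAAAAA, a run of A and the commoner motif, differed from eligible positions by more percentage points than GAGAGA did. It was found at 31.3% of summits and 20.8% of eligible positions, and at 32.6% (30.1 to 35.2%) and 26.5% (25.3 to 27.9%) in unique windows, while on the arms the shares were 33.5% and 32.8%. TATAAA, the TATA box, was at 49.9% against 44.4%, and at 49.8% against 50.5% in unique windows. CACGTG, the G-box, was at 3.26% against 2.18%, and at 3.48% (2.60 to 4.64%) against 2.41% (1.995 to 2.90%) in unique windows. GGTTCGA, part of the B box of tRNA genes, was at 2.85% against 2.12%, and at 2.77% (1.998 to 3.83%) against 1.91% (1.55 to 2.36%) in unique windows. TTTAGGG, the telomere repeat, was at 5.88% against 7.41% over all windows. Its order turned in unique windows, with 5.93% (4.76 to 7.37%) at summits and 4.74% (4.16 to 5.41%) at eligible positions. For these 3 rarer motifs the intervals in unique windows overlapped. A match says only that these letters stand in the window. Eligible positions were not matched to the summits in gene distance, and its part in the motif shares was not tested. TATAAA and AAAAAAAA can share bases in a run of A, so their matches are not separate.

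Many of the summits carried related sequence. With a match of at least 100 bp at 80% identity between windows of 250 bp on each side, 642 of the 1717 (37.4%, interval 35.1 to 39.7%) were related to another of them. The share was 18.1% with at least 200 bp aligned and 9.09% at 90% identity, so it depends on these limits. Among the arm summits 35.1% (32.8 to 37.4%) were related to another arm summit, with a largest group of 85. The pericentromeric summits formed 170 groups, of which 96 were pairs and 23 had at least 5 summits. Groups were chained from matching pairs, so each summit matched at least 1 other of its group but need not match all. Summits of a group are thus not separate observations. The largest group had 76 summits, spread over all 5 chromosomes with 11, 21, 21, 9 and 14. The next had 29 and 20. In the groups of 76, 29 and 20 the most connected summit matched 22, 11 and 10 others. The most connected summit of the largest group is printed with 2 of its relatives, and capitals mark bases that differ from the first line.
Group of 76, chr4:5284134-5284266, score 62: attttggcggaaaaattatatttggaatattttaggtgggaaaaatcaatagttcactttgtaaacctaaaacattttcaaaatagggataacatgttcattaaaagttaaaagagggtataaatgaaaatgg
Relative, chr1:17449696-17449826, score 68: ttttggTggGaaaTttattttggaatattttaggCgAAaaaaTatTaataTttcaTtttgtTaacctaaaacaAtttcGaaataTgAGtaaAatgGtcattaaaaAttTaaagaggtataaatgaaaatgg
Relative, chr5:13629537-13629668, score 58: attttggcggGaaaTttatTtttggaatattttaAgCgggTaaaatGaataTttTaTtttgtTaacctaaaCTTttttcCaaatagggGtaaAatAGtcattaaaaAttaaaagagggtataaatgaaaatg
The relatives have 19 and 20 substitutions and 4 and 1 gap bases against the first line. Some stretches are shared by all the printed lines, such as the letters gtataaatgaaaatg near the end. A further relative on chromosome 2, not printed, has a different base within these letters. All the printed lines lie on the plus strand of TAIR10.1. The group of 20 is shown in the same way because its scores were higher.
Group of 20, chr1:13259275-13259424, score 128: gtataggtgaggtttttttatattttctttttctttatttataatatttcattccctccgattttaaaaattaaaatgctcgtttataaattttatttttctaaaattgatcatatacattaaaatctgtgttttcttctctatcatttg
Relative, chr3:16181192-16181337, score 130: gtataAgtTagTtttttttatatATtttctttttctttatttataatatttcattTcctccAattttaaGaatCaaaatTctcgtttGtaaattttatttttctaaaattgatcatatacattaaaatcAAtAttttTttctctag
Relative, chr3:16699249-16699393, score 534: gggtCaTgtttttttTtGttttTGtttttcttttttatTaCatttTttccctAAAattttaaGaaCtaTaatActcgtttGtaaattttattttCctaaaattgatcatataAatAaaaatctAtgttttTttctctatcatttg
The relatives here have 13 and 21 substitutions and 8 and 7 gap bases, and their scores were 130 and 534.

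Related sequence did not come with 1 level of score. The group of 76 had a median score of 80 and a range of 32 to 615, and its quartiles were 56.25 and 213. The group of 29 had a median of 130 and a range of 32 to 599, and the group of 20 a median of 266.5 and a range of 35 to 881. The widest range of the 10 largest groups was in a group of 11, from 32 to 1161, which holds the summit upstream of HDA7 and had the highest mean GC content of the 10, at 39.2%. Over all groups together the median score was 125, and it was also 125 for the 1075 summits with no relative.

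**Figure D4:**
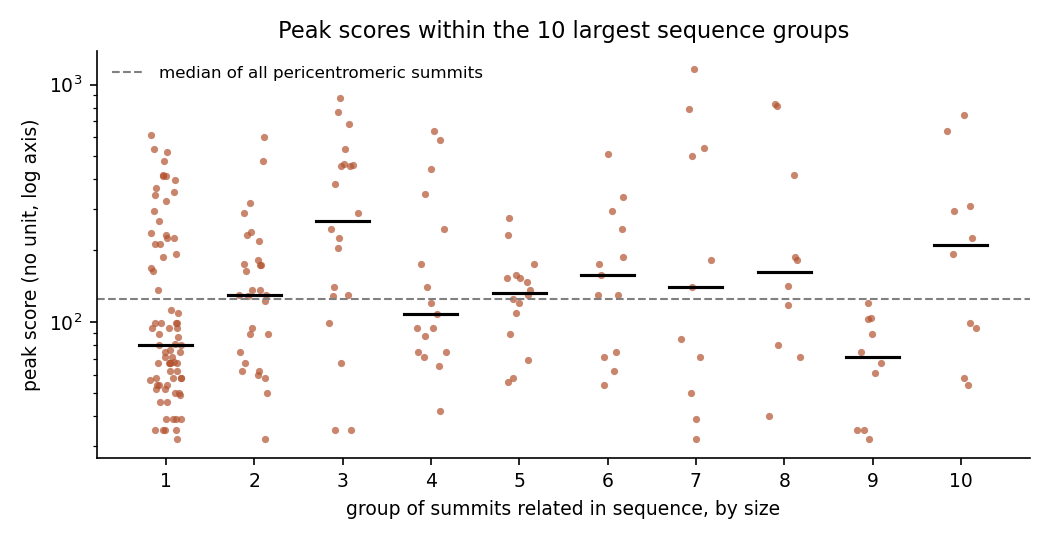
Peak score (log axis, no unit) of each summit in the 10 largest groups of related sequence, ordered by size, with the group median as a line. The dashed line is the median of 125 over all 1717; the medians of the first 3 groups are 80, 130 and 266.5, and the points of each group spread widely.

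The summits had fewer copies elsewhere in the genome than the sequence around them in the spans. A related copy elsewhere in the genome was found for 55.9% of the windows (53.6 to 58.2%), against 74.7% (72.8 to 76.4%) of eligible pericentromeric windows. At least 10 copies were found for 13.1% against 42.4%, and a copy on the same strand within 15000 bp for 6.35% against 27.3%. On the arms the order was the opposite, with a copy for 53.3% of summits and 21.2% of eligible windows. At least 10 copies were found for 19.8% of arm summits (17.9 to 21.8%), above the 13.1% in the spans (11.6 to 14.8%). Among summits with only unique 50-base words these shares were 4.798% (3.67 to 6.25%) and 4.747% (3.71 to 6.06%). The difference between arms and spans was thus not seen there. Eligible windows were not matched to the summits in gene distance, and its part in the copy shares was not tested.

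In windows with only unique words the pericentromeric shares with a copy were 43.0% (40.3 to 45.7%) at summits and 39.9% (36.7 to 43.1%) in eligible windows. Their intervals overlapped. Intervals also overlapped for at least 10 copies, with 4.747% (3.71 to 6.06%) and 6.49% (5.06 to 8.305%). For a copy on the same strand within 15000 bp the shares were 3.96% (3.01 to 5.18%) and 4.93% (3.69 to 6.55%). On the arms the shares with a copy were 31.04% (28.3 to 33.9%) and 6.32% (5.18 to 7.70%), which stayed far apart. The lower share at pericentromeric summits was thus not seen in unique windows, whereas the higher share on the arms was. The score was lower with more copies, with medians of 136, 120 and 100 for summits with 0, 1 to 9 and at least 10 other copies. Unique words within 250 bp made up 99.7%, 98.0% and 95.004% in these classes, and their part in the scores was not tested.

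**Figure D5:**
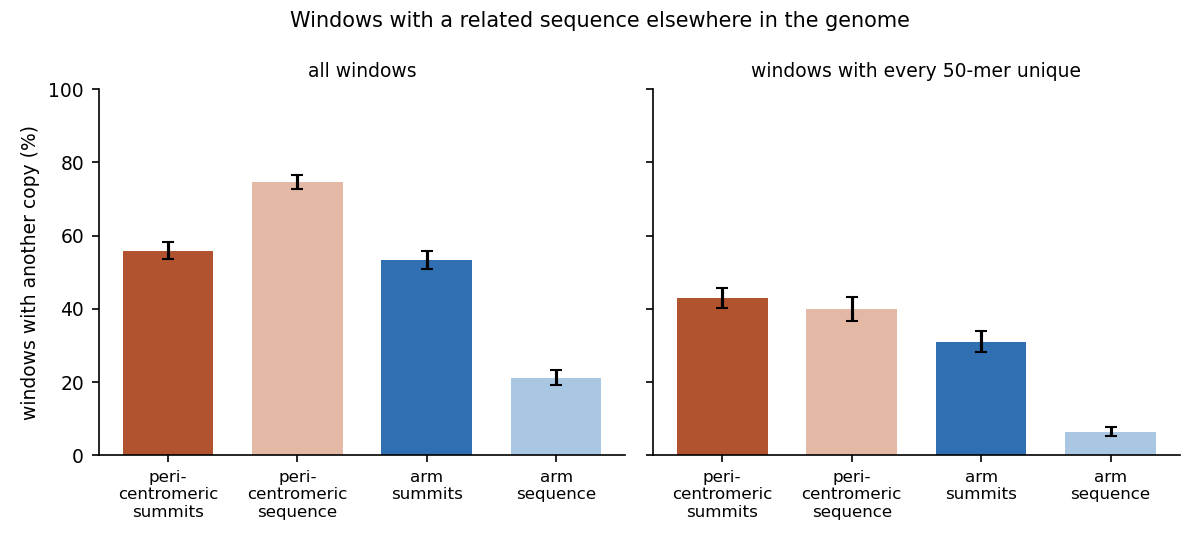
Share (%) of windows with a related copy elsewhere in the genome, for summits and for eligible sequence in the spans (orange) and on the arms (blue), with Wilson intervals. Over all windows (left) the shares are 55.9, 74.7, 53.3 and 21.2%, and in windows with only unique 50-base words (right) 43.0, 39.9, 31.04 and 6.32%.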

How the data were processed

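The list holds 1 whole-number score per Pol V peak, made by the authors with the peak caller MACS2 and deposited without a unit. Per the study's methods, published Pol V and no-antibody reads were aligned to TAIR10 with Bowtie 1.0.0, keeping unique hits, duplicates were removed with SAMtools 0.1.19, and peaks at a q-value of 0.05 with over 2-fold enrichment were kept. Unique mapping removes signal from exact repeats. Read length was not used here, and 50-base words stand in for it. There were 0 unused columns, and 1 blank record was left out.

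Genes, pseudogenes and sequence came from RefSeq TAIR10.1, with 27444 protein-coding genes and 4843 pseudogenes. All summits lay within its chromosomes, whose coordinates were taken as those of TAIR10. Eligible sequence was sampled every 1000 bp (every 5000 bp for copies). Windows were related by BLASTN (BLAST+ 2.17.0, e-value 1e-05, at least 80% identity over 100 bp). Copies in the genome were found by megablast with the same limits, a different search that missed some matches between summits. Shares have Wilson intervals, densities exact Poisson intervals and medians order-statistic intervals. Functions were tested on simulated sequence, and 21 of 21 checks passed. The check of the density ratio had missed its tolerance in a single random draw and was then made on the mean of 100 draws. Python 3.11.15, NumPy 2.4.6, SciPy 1.17.1, pandas 2.3.3 and matplotlib 3.10.9 were used.

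The rule, motifs and lists were chosen with earlier results of these data known. Sites named are the 10 highest scores, the highest of each chromosome, the closest pair, the summit farthest from a gene, the longest run, the largest related group and those nearest the 1000 bp limit. A site that this rule names is not reported here. The groups of 29, 20 and 11, the chromosome 2 bin and the summits in unique windows were picked after their values were seen. Alternatives varied the score threshold, merging, gene distance, span ends, chromosomes, neighbour distance, window and the limits for related sequence. The anti-FLAG libraries were not analysed here.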

Additional observations from a re-analysis of the deposited data

How the results depend on the processing

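No paired analysis was possible because the list comes from 1 peak call and no result comes from a test. Over the alternatives tried, 29 values moved by less than their counting interval (1.5 times for the number of summits) and 28 moved by more.

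With scores at or above the list median, the density was 59.7 per Mb, the median score 294, the share with a neighbour 44.9%, GC content 31.8%, unique words 98.8% and the related share 22.9%. With summits within 1000 bp merged, these were 124 per Mb, 145, 63.2%, 31.3% GC and 33.9% related. Beyond 500 bp from genes, the density was 185 per Mb, the share with a neighbour 73.6% and the related share 42.9%. Beyond 2000 bp there were 1053 summits, 117 per Mb, with 29.4% related. With spans shortened by 500 kb at each end the density was 138 per Mb. Without chromosome 4 the related share was 34.6%. The share with a neighbour was 34.0% within 1000 bp, 90.2% within 6000 bp and 55.9% counting only summits that met the rule. Within 100 bp, GC content was 32.7% and unique words 99.1%. The related share was 9.09% at 90% identity and 18.1% over at least 200 bp.

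The density ratio near genes to far from genes, added with its alternatives after the data were examined, was 14.7 without chromosome 2 and 7.92 per Mb of unique words. It stayed within its interval of 9.31 to 14.5 with the score threshold, with merging, with shorter spans and without each other chromosome.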
